A study of Mus musculus with 16 samples.

Results

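Wild-type mouse quadriceps taken after treadmill running was compared with wild-type quadriceps taken at rest, gene by gene, in 3 RNA-seq libraries per group. The compared genes were those with a mean of 1 FPKM or more in either group (FPKM, fragments counted per transcript length and library size). This gave 10711 of the 24327 genes found in both deposited tables. Of these, 10079 reached the limit in both groups, 450 at rest only and 182 after running only. At the limit itself, 201 genes had a highest group mean from 1 to 1.1 FPKM and 242 genes left out had one from 0.9 to 1 FPKM.

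All mice were males aged 4 months on a background the labels write both as C57B/6 and as C57BL/6, kept on ordinary chow and a regular light and dark cycle. The running group made 3 bouts of 1 h each at 10 m/min, separated by pauses of 1 h, and the quadriceps was collected 2 h after the last bout. The rest group was wild type too. The labels give no hour of collection, no feeding state and no handling of the rested mice, and they do not say whether each library came from its own mouse, so the p-values measure only the spread between these libraries. The series also holds 3 libraries per condition from HDAC3-KO muscle, in which the histone deacetylase gene Hdac3 is inactivated by a means the labels do not describe. Those 6 libraries are used here only to set the wild-type differences beside a second genotype.

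Running muscle draws on glycogen, blood glucose and fatty acids, and its nuclei receive calcium, energy and stress-hormone signals. Glucocorticoids, released from the adrenal gland in stress and exertion, bind a receptor that switches on genes of fuel use, protein breakdown and feedback on hormone action. Immediate early genes and heat shock proteins answer contraction, heat and unfolded protein within minutes to hours, while FoxO factors drive genes of protein breakdown and fat use when insulin signals are low.

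The rest and running values stand in tables that the authors made separately, so running and table cannot be told apart in any value given here. The level scales were checked first. Median-of-ratios factors of the 6 libraries lay between 0.990 and 1.01, and between 10123 and 10529 genes per library were at or above 1 FPKM. The summed FPKM was 453970 to 484159 at rest and 484436 to 522584 after running. Pearson correlations of log2 FPKM across genes were 0.965 to 0.981 within groups and 0.965 to 0.981 between groups, so the libraries did not separate by this measure. The first principal component held 29% of the variance and placed the rest libraries at 15 to 18.2 and running libraries 1, 2 and 3 at -37.2, -6.94 and -5.57. Running library 1 stood apart from the other running libraries on it. Hdac3 itself was at 33.3, 31.0 and 23.7 FPKM at rest and 31.0, 32.0 and 27.6 FPKM after running, with overlapping groups, against 4.13 to 8.16 FPKM over the 6 HDAC3-KO libraries.

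No gene passed limma's adjusted p of 0.05 in the 6 libraries: 0 of 10711 genes (0%) were called higher and 0 (0%) lower, with a smallest adjusted p of 0.0563. At an unadjusted p under 0.05 there were 481 higher genes (4.49%) and 594 lower genes (5.55%). The adjusted p was under 0.1 for 9 genes and under 0.2 for 62. Without limma's trend, 1 gene was called higher, and in a fit over all 12 libraries of both genotypes, which shares 1 estimate of the spread, 5 genes (0.0467%) were called, all higher after running: Rnaset2a, Bcl2l1, Ppp1r3c, Ddit4 and Lrrc58. Leaving out running library 2 gave 3 genes called higher (Mt1, Mt2 and Rnaset2a) and 1 lower (Cd52).

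Since the adjusted test left nothing to count, genes were also described by a plain rule on the deposited FPKM: all 3 running libraries on 1 side of all 3 rest libraries, and group means at least 1.5-fold apart. By this rule 209 genes (1.95%) were higher after running and 353 (3.3%) lower. The 450 genes that reached 1 FPKM at rest only could only be lower, and the 182 after running only could only be higher. Fgf6, Lepr, Myf5 and Adgre1, given below, are among the former, and Rnaset2a, Egr1, Hspa1a and Hspa1b among the latter. Pdk3, Nfatc2, Ptprc, Cd68, Sod3, Il6ra and Ier2, also given below, were under 5 FPKM in both groups. Some of them may likewise have reached 1 FPKM in 1 group only, which would fix their direction. The groups did not overlap, whatever the fold, for 736 genes above and 1007 below, 16.3% of all. The median difference over all genes was -0.01 on the log2(FPKM + 1) scale, with the middle 50% of genes between -0.15 and 0.13. Of all differences 47.9% were positive, and the median was 0.03 among the 6374 genes with a mean of 5 FPKM or more. The scale matters for the balance of directions. Setting every library to the same FPKM total moved the median to -0.11, the counts by the plain rule to 132 higher and 584 lower, and the higher share of genes at unadjusted p under 0.05 from 44.7% to 17.4%. Quantile scaling moved it the other way, to 255 higher and 248 lower genes by the plain rule. Under median-of-ratios scaling, the 6374 genes with a mean of 5 FPKM or more also leaned upward. Of these 384 were higher and 270 lower at limma's unadjusted p under 0.05 (58.7% higher). Leaving out rest library 1 or 3 gave 325 and 415 higher genes, leaving out running library 2 or 3 gave 338 and 332, and leaving out rest library 1 or running library 2 gave 540 and 584 lower ones.

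**Figure D1:**
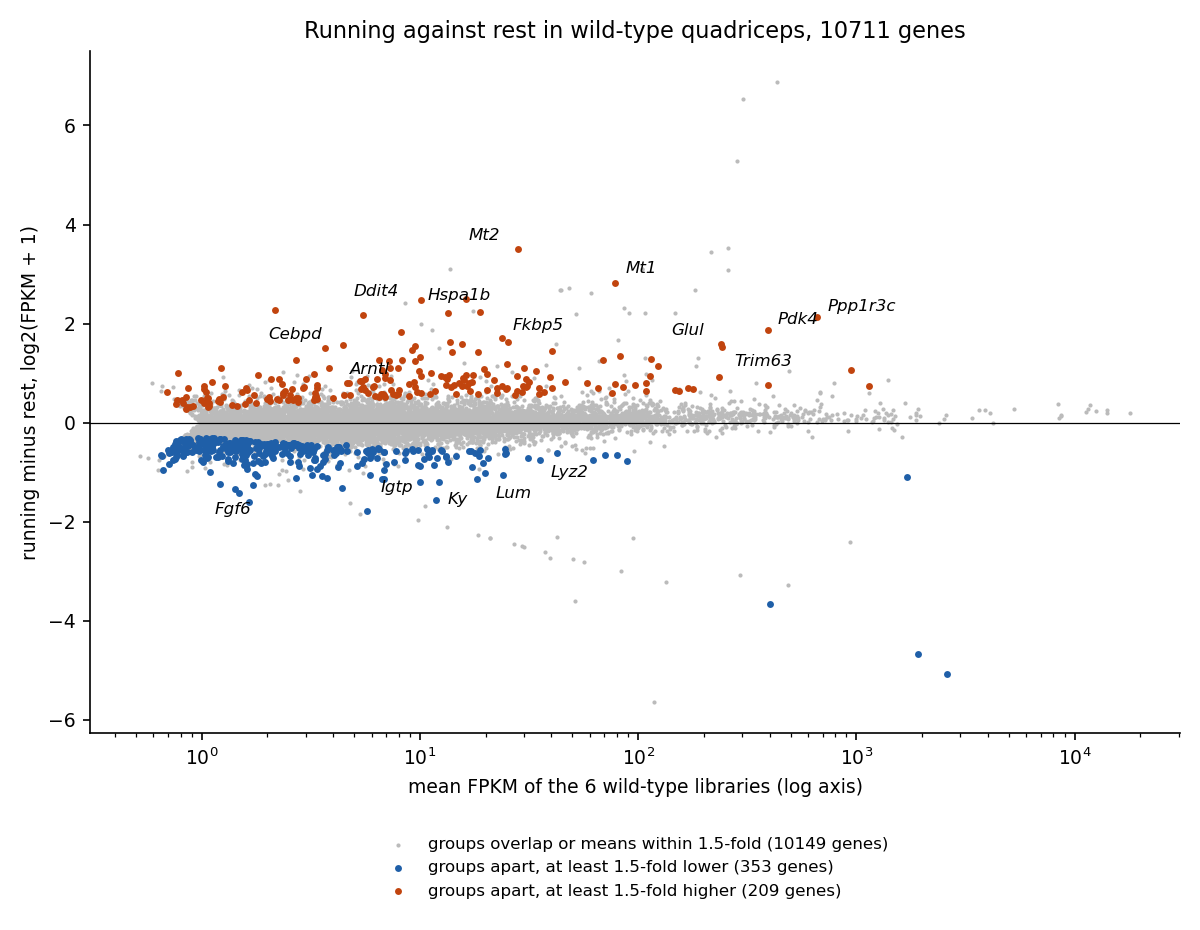
Running minus rest on the log2(FPKM + 1) scale (vertical axis) against the mean FPKM of the 6 wild-type libraries (horizontal log axis), 1 point per gene, with the 209 higher and 353 lower genes of the plain rule in colour. The metallothionein genes Mt2 and Mt1 lead the coloured genes upward, and the scattered points beyond 3 on either side are mostly small RNA genes.

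Those scattered points call for care. Of the 18 genes whose difference exceeded 3 in size, 15 were microRNA and small nucleolar RNA genes, short transcripts for which FPKM is an unstable measure. Small RNA genes made up 65 of the 10711 genes, and 1 of them was higher and 4 lower by the plain rule.

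The clearest group among the gene lists was that of glucocorticoid-responsive genes and metallothioneins. Both the list and the plain rule were chosen with results of these data known, so the counts describe these libraries and test nothing. All 19 listed genes were measured. Of them 14 were higher by the plain rule and none lower, beside 1.95% and 3.3% of all genes. The median difference was 0.88 against -0.01 over all genes. At an unadjusted p under 0.05, 16 were higher and 1 lower, and none was called by limma in the 6 libraries. The 14 were the metallothioneins Mt1 and Mt2, the regulators Cebpd, Klf15, Per1 and Tsc22d3, the kinase genes Sgk1 and Map3k6, the signalling brakes Ddit4, Errfi1, Nfkbia and Fkbp5, and the enzymes Glul and Sult1a1. The count was 12 to 14 under equal-total and quantile scaling and with any 1 library left out.

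Mt2, a small cysteine-rich protein that binds zinc and copper, was at 2.79, 2.24 and 5.46 FPKM at rest and at 72.7, 24.1 and 62.0 FPKM after running. Every running library lay far above every rest library, and running library 2 was the lowest of the running ones. The ratio of means was 15.1, and the log2 difference was 3.51 (SE 0.43, limma adjusted p 0.0842). Mt1, its neighbour on the chromosome with the same function, was at 17.9, 16.3 and 17.1 FPKM at rest and at 208, 66.6 and 144 FPKM after running. Again running library 2 was the lowest of its group and still well above the rest libraries, which were close together. The Mt1 ratio was 8.15 (log2 difference 2.82, limma adjusted p 0.105). Without running library 2 both passed, Mt1 at an adjusted p of 0.0147 and Mt2 at 0.0381. Over all alternatives these p ranged from 0.0147 to 0.556 for Mt1 and from 0.0381 to 0.525 for Mt2.

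Ddit4 (REDD1), which restrains the growth kinase mTORC1, was at 2.59, 2.08 and 2.01 FPKM at rest and at 13.9, 12.6 and 27.2 FPKM after running. Rest values were nearly equal, and the highest running value was in library 3. Its ratio was 8.03 and its log2 difference 2.48 (SE 0.26, limma adjusted p 0.0729). In the fit of 12 libraries Ddit4 passed with an adjusted p of 0.0389, within a range of 0.0185 to 0.412 over the alternatives. Cebpd, a transcription factor of the C/EBP family, was at 1.48, 1.87 and 1.83 FPKM at rest and at 9.13, 5.92 and 6.37 FPKM after running. Both groups were tight and well apart (ratio 4.14, log2 difference 1.57, limma adjusted p 0.0745).

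Tsc22d3, known as GILZ and used as a read-out of the glucocorticoid receptor, was at 172, 154 and 164 FPKM at rest and at 325, 286 and 311 FPKM after running. Its ratio was only 1.88, yet the spread within each group was small beside the gap (log2 difference 0.91, SE 0.09, limma adjusted p 0.0729). Fkbp5, a chaperone that lowers the receptor's affinity for hormone, was at 17.1, 8.02 and 8.18 FPKM at rest and at 31.6, 37.8 and 40.3 FPKM after running. Rest library 1 stood above the other rest libraries, as it also did for Glul and Ppp1r3c. Fkbp5 had a ratio of 3.30 with all libraries and a limma adjusted p of 0.146. Without rest library 1 it passed at 0.0252, the lowest of a range that reached 0.556. Glul, the glutamine synthetase, was at 181, 96.4 and 91.7 FPKM at rest and at 431, 317 and 325 FPKM after running, a ratio of 2.91 with no overlap.

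The other members of the 14 had ratios from 1.52 (Sult1a1) to 2.49 (Map3k6), among them Per1 at 2.01, Nfkbia at 1.98, Klf15 at 1.75 and Sgk1 at 1.62. Of the 5 listed genes outside the 14, Zbtb16 and Klf9 had higher running libraries throughout but ratios of 1.38 and 1.26, and Cebpb overlapped between groups. Lcn2 was at 11.7 FPKM in rest library 2 and at 0.487 to 1.38 FPKM in the other wild-type libraries. Lcn2 is also made by neutrophils, whose markers were high in that same library as given further on. Nr3c1, the gene of the glucocorticoid receptor itself, ran the other way: 34.2, 38.3 and 35 FPKM at rest against 28.8, 26.4 and 29.1 FPKM after running. The groups did not overlap, at a ratio of 0.785 and a limma adjusted p of 0.327.

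**Figure D2:**
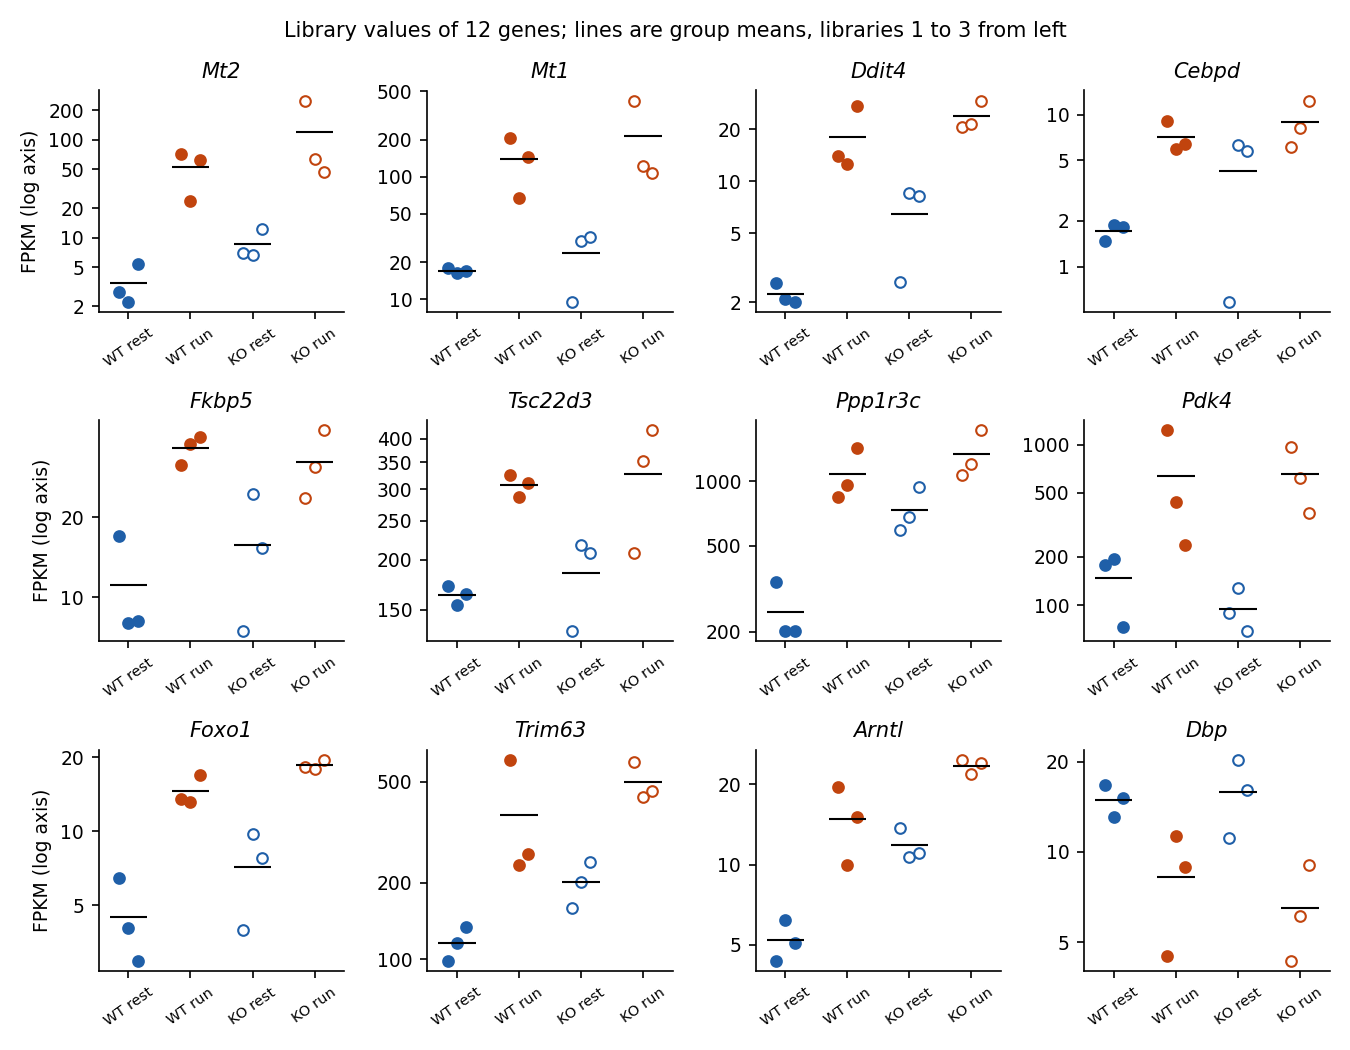
FPKM (log axis, scaled per gene) of 12 genes in each library of the 4 groups, filled points for wild type and open points for HDAC3-KO, with lines at the group means. In wild type all 3 running libraries lie above all 3 rest libraries for 11 of the genes and below them for Dbp; in HDAC3-KO the rest and running libraries overlap for Cebpd, Fkbp5 and Tsc22d3.

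The upstream sequences of 3 genes of this list are shown because they carry letters known from metal and hormone response elements. Each is the 250 bases before a start site in RefSeq's table (build GRCm38.p6, whereas the expression files use mm9), written 5′ to 3′ on the gene's strand. Capitals mark matches to the metal response cores TGCACNC and TGCGCNC in Mt1 and Mt2, and to the paired receptor half-sites AGAACA and TGTTCT, 3 bases apart, in Sgk1. Both strands were searched, so a capital run may read as the reverse complement.
Mt1, chr8:94178839-94179088, plus strand: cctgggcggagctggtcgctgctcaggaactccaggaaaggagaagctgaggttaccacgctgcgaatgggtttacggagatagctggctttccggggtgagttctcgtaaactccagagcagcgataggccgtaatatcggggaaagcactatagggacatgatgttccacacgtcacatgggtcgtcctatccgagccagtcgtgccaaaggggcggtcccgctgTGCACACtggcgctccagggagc
Mt2, chr8:94172368-94172617, plus strand: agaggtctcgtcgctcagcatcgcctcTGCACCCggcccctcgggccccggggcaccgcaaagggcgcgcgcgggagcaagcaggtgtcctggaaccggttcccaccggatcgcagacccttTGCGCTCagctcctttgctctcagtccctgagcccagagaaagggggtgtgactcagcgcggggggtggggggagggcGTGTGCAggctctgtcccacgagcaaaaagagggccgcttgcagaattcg
Sgk1, chr10:21993640-21993889, plus strand: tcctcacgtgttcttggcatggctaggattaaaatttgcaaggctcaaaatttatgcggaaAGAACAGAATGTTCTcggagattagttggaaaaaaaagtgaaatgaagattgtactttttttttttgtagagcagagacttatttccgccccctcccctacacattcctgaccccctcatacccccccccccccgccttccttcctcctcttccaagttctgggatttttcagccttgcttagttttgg

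The Mt1 window holds 1 metal core, 23 to 17 bases before the start, and the Mt2 window holds 3, the nearest at 50 to 44 bases. The metal cores are common letters: TGCACNC lies in 10.4% and TGCGCNC in 12.5% of all 32851 windows of this length. The paired receptor site is rare, with a match in 3 of the 32851 windows (0.00913%), of which Sgk1 is 1; it spans 189 to 175 bases before the start and overlaps a match to the heat shock letters GAANNTTC. Sgk1 has 6 start sites in the table, and the window shown was picked because it alone of the 6 holds the paired site. A match describes letters and does not show binding.

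Outside that list, the genes of lowest p that were higher after running were Ppp1r3c, Plin4, Bcl2l1, Galnt15 and Rnaset2a. Ppp1r3c, which brings a phosphatase to glycogen and favours its synthesis, was at 340, 202 and 201 FPKM at rest and at 840, 961 and 1426 FPKM after running. All running libraries were at least 840 FPKM and rest library 1 was the highest at rest. The ratio was 4.34 (log2 difference 2.13, SE 0.26, limma adjusted p 0.0842). Plin4, a coat protein of lipid droplets, was at 85.2, 60.4 and 55.4 FPKM at rest and at 159, 166 and 161 FPKM after running. The running libraries were almost equal (ratio 2.42, limma adjusted p 0.0842). Ppp1r3c passed in the fit of 12 libraries at 0.019, with a range of 0.019 to 0.525 over the alternatives, and Plin4 passed without rest library 1 at 0.0252, with a range up to 0.525.

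Bcl2l1, which encodes the survival protein Bcl-xL, was at 4.40, 4.35 and 4.26 FPKM at rest and at 10.1, 9.31 and 9.26 FPKM after running. The 3 values of each group were almost the same (ratio 2.20, log2 difference 0.99, SE 0.10, limma adjusted p 0.0729). In the fit of 12 libraries the adjusted p of Bcl2l1 was 0.019, the lowest of a range up to 0.412. Galnt15, an enzyme that starts sugar chains on proteins, was at 4.41, 3.68 and 3.80 FPKM at rest and at 10.6, 9.07 and 8.41 FPKM after running (ratio 2.36, limma adjusted p 0.0842). Lrrc58, with an adjusted p of 0.0389 in the fit of 12 libraries and 0.153 in the 6 wild-type ones, was at 20.8 to 25.6 FPKM at rest and 35.5 to 47.1 FPKM after running, and its alternatives ran from 0.0389 to 0.584.

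Rnaset2a, a lysosomal ribonuclease gene, had the lowest p of all. It was listed at 0.190, 0.0105 and 0.0105 FPKM at rest and at 4.70, 3.00 and 5.02 FPKM after running (log2 difference 2.27, SE 0.19, limma adjusted p 0.0563; 0.000941 in the fit of 12 libraries, range 0.000941 to 0.249). It has a near-identical copy, Rnaset2b, and how reads were split between the copies is unknown, which makes this value uncertain. Rnaset2b was at 0.718 to 1.95 FPKM at rest and 0.749 to 2.20 FPKM after running. In HDAC3-KO muscle Rnaset2a was at 2.57 to 3.15 FPKM at rest.

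Genes of fatty acid use were mostly above their rest level, with 24 of 26 differences positive beside 47.9% over all genes. The median was 0.36, and 24 and 23 were positive under quantile and equal-total scaling. Only Pdk4 and Ucp3 met the plain rule, while 8 of the 26 were higher at an unadjusted p under 0.05. The count by the plain rule was 6 without rest library 1 and 11 without running library 3, and the median was 0.24 with equal totals and 0.19 under quantile scaling. Pdk4, the kinase that closes pyruvate's entry into the tricarboxylic acid cycle, was at 178, 194 and 73.8 FPKM at rest and at 1230, 438 and 236 FPKM after running. Running library 1 was by far the highest, rest library 3 the lowest, and the groups lay only a little apart at their closest. The mean ratio of 4.26 had a limma adjusted p of 0.394. Ucp3, a mitochondrial carrier linked to fatty acid use, was at 60.2, 52.1 and 28.3 FPKM at rest and at 163, 115 and 79.1 FPKM after running (ratio 2.54). Fabp3, the fatty acid binding protein of muscle, had a ratio of 1.53 with overlapping groups.

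Fat storage and lipolysis held 4 higher genes of 15 measured, beside 1.95% of all genes: Plin4, given above, and Plin5, Lpin1 and Agpat9. The list median was 0.28, or 0.18 with equal totals and 0.47 without running library 3. Lpin1, a phosphatidate phosphatase that also acts as a coactivator in the nucleus, was at 89.3, 80.2 and 85.2 FPKM at rest and at 136, 125 and 137 FPKM after running. Its groups were tight and clearly separate (ratio 1.56, SE 0.09, limma adjusted p 0.14). Plin5, which ties lipid droplets to mitochondria, was at 5.60 to 9.16 FPKM at rest and at 28.9, 24.2 and 10.2 FPKM after running, with library 3 close to the rest range. Lipid synthesis genes had a median of -0.14 with 7 of 18 positive. Scd2, a fatty acid desaturase, met the rule for lower genes (ratio 0.619; 3 genes did without rest library 1), while Me1 and Acacb, the most abundant of that list, had ratios of 1.02 and 1.22 with overlapping groups. The sign of the Me1 difference turned under other scalings.

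Among 31 genes of glucose uptake, glycolysis and glycogen, the median was 0.09 and turned to -0.03 under equal totals. The abundant enzymes Aldoa and Eno3 had ratios of 1.06 and 1.19, and the Aldoa sign turned under other scalings. The members that met the plain rule were regulators. Besides Ppp1r3c, Pfkfb4 was higher, at 19.4, 17.6 and 19.5 FPKM at rest and 31.4, 28.3 and 33.0 FPKM after running (ratio 1.64, limma adjusted p 0.14). Pfkfb3, a related isoform that sets fructose 2,6-bisphosphate and so glycolysis, was lower, at 18.2, 12 and 9.88 FPKM at rest and 5.13, 8.12 and 6.81 FPKM after running (ratio 0.501, limma adjusted p 0.291).

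The list of atrophy, FoxO and autophagy genes held 5 higher genes of 21, beside 1.95% of all genes. Its median was 0.23, or 0.11 with equal totals and 0.15 without running library 1. Foxo1, a factor held out of the nucleus by insulin, was at 6.46, 4.05 and 2.97 FPKM at rest and at 13.5, 13.1 and 16.9 FPKM after running. Every running library was at least 13.1 FPKM (ratio 3.24, log2 difference 1.55, limma adjusted p 0.14). Trim63 (MuRF1), a ubiquitin ligase of muscle protein breakdown, was at 98.8, 116 and 134 FPKM at rest and at 611, 236 and 260 FPKM after running. Running library 1 was the highest, and the other 2 still lay above all rest libraries (ratio 3.17). Fbxo32 (atrogin-1), the ligase usually named beside Trim63, had overlapping groups and a ratio of 1.35. Cdkn1a (p21), an inhibitor of cell division, was at 0.841, 1.12 and 1.56 FPKM at rest and at 17.1, 7.13 and 5.20 FPKM after running (ratio 8.35, limma adjusted p 0.178). Gadd45a and Foxo3 had ratios of 3.47 and 1.90, both without overlap. Sqstm1, an autophagy receptor, had a ratio of 1.13 with overlap.

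Of 22 genes of insulin and growth signalling, 2 were higher and 2 lower, beside 1.95% and 3.3% of all genes (median 0.04). Eif4ebp1, which blocks cap-dependent translation, was at 23.4, 24.2 and 32.7 FPKM at rest and 70.5, 38.0 and 48.9 FPKM after running (ratio 1.96). Sesn1, a brake on mTORC1, had a ratio of 1.82. Igf1, the growth factor, was at 5.22, 5.10 and 3.58 FPKM at rest and 2.49, 2.89 and 2.30 FPKM after running (ratio 0.552), and Grb14, an inhibitor of the insulin receptor, had a ratio of 0.648. The most abundant members, Akt2 and Ddit4l, had ratios of 1.16 and 0.678, both without overlap. Socs2 and Cish, feedback inhibitors of growth hormone signalling chosen after their values were seen, had ratios of 0.404 and 0.489.

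Musk, Myf6, Arrdc2 and Slc25a25 were chosen after their values were seen, and all 4 were higher. Musk, the receptor kinase that gathers acetylcholine receptors under the nerve ending, was at 6.24, 6.10 and 7.17 FPKM at rest and at 17.5, 10.6 and 13 FPKM after running (ratio 2.11, limma adjusted p 0.196). Myf6, a myogenic factor of mature fibres, was at 59.1, 75 and 83.1 FPKM at rest and at 281, 102 and 143 FPKM after running. For both, running library 1 was highest and no library crossed between groups. Among the 6 measured satellite cell markers, Myog was higher (ratio 2.48) and Myf5, a marker of the quiescent and dividing cells, was lower at 0.235 to 0.354 FPKM against 0.832 to 1.27 FPKM. Arrdc2 and Slc25a25, the latter an ATP and phosphate carrier of mitochondria, had ratios of 4.52 and 3.18.

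Clock genes differed in both directions, with 3 of 19 higher and 4 lower, beside 1.95% and 3.3% of all genes (median -0.05). Arntl (BMAL1), the activator at the centre of the clock, was at 4.36, 6.17 and 5.08 FPKM at rest and at 19.5, 9.99 and 15.1 FPKM after running. The ratio was 2.85, with no overlap and a limma adjusted p of 0.18. Nfil3, a repressor of D-box genes, was at 13.4, 16.3 and 12.9 FPKM at rest and 54.9, 25.3 and 26.8 FPKM after running. Per1, which is on the glucocorticoid list too, was at 3.68, 2.41 and 5.13 FPKM at rest and 7.59, 8.37 and 6.55 FPKM after running. Dbp, an output factor that BMAL1 drives, was lower: 16.7, 13.1 and 15.1 FPKM at rest against 4.50, 11.3 and 8.90 FPKM after running. Running library 1 was the lowest for Dbp and the highest for Arntl and Nfil3.

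Per3, Bhlhe40 and Bhlhe41, repressors within the clock loop, were the other lower genes, with ratios of 0.607, 0.576 and 0.581. Per2 was level (ratio 1.01), and Nr1d1 overlapped between groups at a ratio of 0.688, so the loop's members did not share a direction. Nampt and Tef, the most abundant of the list, had ratios of 0.848 and 0.969, and the Tef sign turned without running library 1. Leaving out running library 1 left 1 lower gene in place of 4. The labels give no hour of collection for either group, and its part in these differences was not tested.

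The promoter window of Per1 is shown for the E-box, the letters CACGTG to which BMAL1 and its partner bind, in capitals (RefSeq, GRCm38.p6). Of the 2 Per1 start sites, the 1 shown was picked because only its window holds the letters.
Per1, chr11:69098699-69098948, plus strand: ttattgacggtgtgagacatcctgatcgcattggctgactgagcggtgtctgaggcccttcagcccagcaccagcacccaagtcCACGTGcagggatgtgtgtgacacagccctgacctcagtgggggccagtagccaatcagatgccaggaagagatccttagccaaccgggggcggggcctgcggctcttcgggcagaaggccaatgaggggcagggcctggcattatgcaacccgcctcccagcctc
The E-box lies 166 to 161 bases before the start. The same letters occur in 6.02% of all windows. Counted per gene, with a match in any of its windows, they occur in 9.58% of genes higher by the plain rule (16 of 167 matched). Lower genes had 9.27% (24 of 259), beside 10.3% of the 8189 matched genes of the comparison.

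Immediate early genes had the second highest list median (0.61, 17 of 18 positive beside 47.9% of all genes). Most of the median's size rested on running library 1, while 16 of the 18 were still positive without it. Fos, a subunit of AP-1, was at 1.18, 1.93 and 3.48 FPKM at rest and at 62.5, 2.94 and 1.64 FPKM after running. Only library 1 was high, and running libraries 2 and 3 lay within the rest range. The mean ratio of 10.2 had a limma adjusted p of 0.69. Atf3, a stress-induced factor, was at 3.34, 15.3 and 8.83 FPKM at rest and at 250, 8.57 and 25.9 FPKM after running, again led by library 1. Egr1 was at 6.61 FPKM in running library 1 and at 0.544 to 0.772 FPKM in the other 5.

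Zfp36 was an immediate early gene higher in every running library. This destabiliser of inflammatory mRNAs was at 2.25, 2.09 and 1.71 FPKM at rest and 7.94, 3.95 and 4.98 FPKM after running (ratio 2.79, limma adjusted p 0.21). Btg2 and Ier2 also met the plain rule, Ier2 as a gene under 5 FPKM in both groups. Btg2 did so with 37.0 FPKM in library 1 and 6.23 to 7.19 FPKM in the others, close to its rest range of 5.04 to 6.06 FPKM. Dusp1, a phosphatase that ends MAP kinase signals, had no overlap and a ratio of 1.49. The list's count of higher genes, 3 with all libraries, was 1 without running library 1, where the median was 0.24. It was 5 without rest library 1, 6 without running library 2 and 7 without rest library 3 or running library 3, where fewer libraries have to lie apart.

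Heat shock genes showed the same split. Of 26 heat shock proteins and co-chaperones, 24 differences were positive (22 and 21 under quantile and equal-total scaling), beside 47.9% of all genes. The median was 0.38, and 5 were higher by the plain rule, beside 1.95% of all genes: Hspa1b, Dnajb1, Dnajb4, Hspa8 and Hspb7. Hspa1a, the inducible HSP70, was at 0.553, 0.739 and 1.08 FPKM at rest and at 63.6, 0.579 and 1.71 FPKM after running. Its near-identical copy Hspa1b was at 77.9 FPKM in running library 1 and at 0.122 to 0.935 FPKM elsewhere, and reads of the pair may have been split, so each value alone is uncertain. Dnajb1, the partner chaperone HSP40, was at 80.9 FPKM in library 1 and at 2.31 to 2.84 FPKM in the other 5 libraries. Its groups were formally apart, with a gap between them of hundredths of an FPKM.

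The constitutive chaperone Hspa8, the most abundant of the list, was higher in every running library: 884, 937 and 729 FPKM at rest and 1797, 1115 and 1386 FPKM after running (ratio 1.69, limma adjusted p 0.275). Hspb7, a small heat shock protein of striated muscle, was at 52.6, 74.5 and 86.1 FPKM at rest and 163, 94.1 and 108 FPKM after running. Hsp90aa1, Hspb1 and Cryab overlapped between groups while library 1 was at 225, 593 and 1463 FPKM. Without running library 1 the median of the list was 0.14, with 23 of 26 differences still positive, and 1 gene was higher in place of 5. Without running library 2 there were 10 higher genes.

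Ankrd1 and Xirp1, genes of stretch and sarcomere repair, followed the same library. Ankrd1 was at 357, 29.8 and 64.8 FPKM after running and at 5.43 to 29.8 FPKM at rest, and Xirp1 at 388, 48.5 and 68.0 FPKM after running and 23.7 to 67.4 FPKM at rest. In that list of 15 the median was 0.43 and 0 genes were higher by the plain rule. Without running library 1 the median was 0.10 with 9 positive, while 3 genes were higher without rest library 3, 5 without running library 2 and 4 without running library 3, with medians of 0.69 and 0.66 for the last pair. Xirp2 and Cryab, its most abundant members, had ratios of 1.18 and 1.69 with overlap. By contrast the glucocorticoid list counted 13 or 14 higher genes with any library left out. What set running library 1 apart was not tested.

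**Figure D3:**
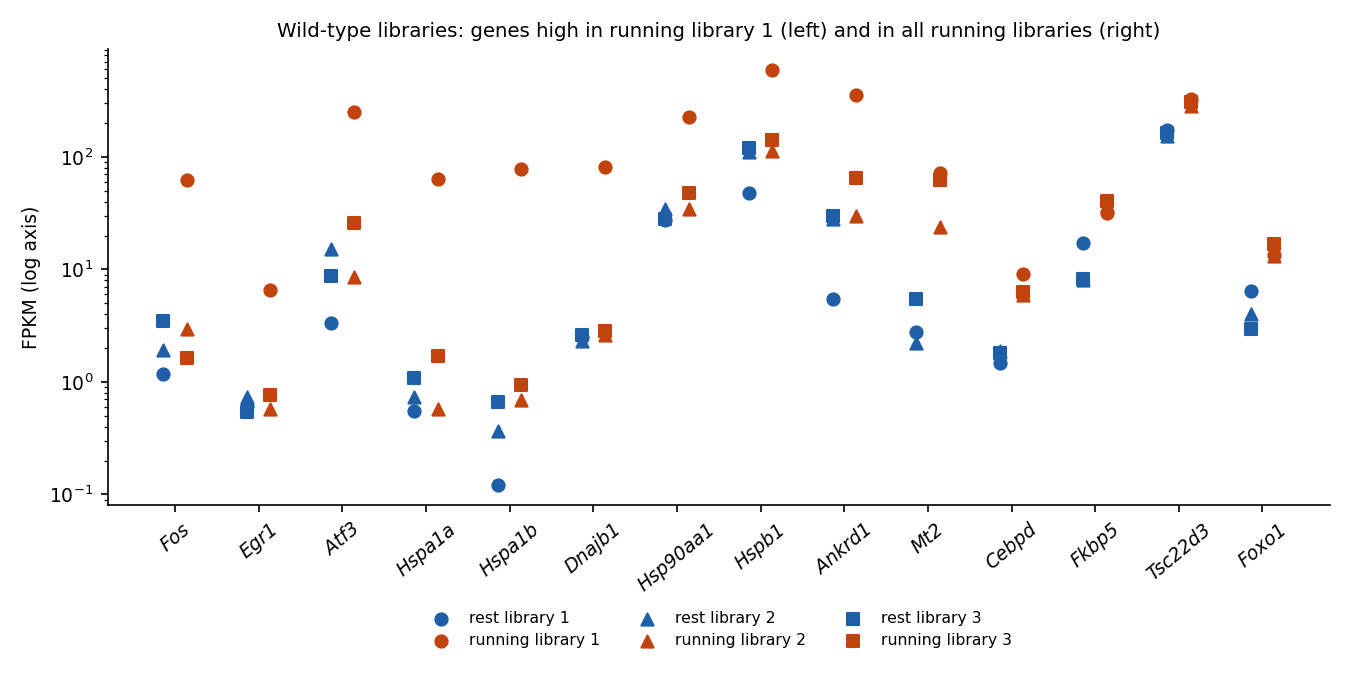
FPKM (log axis) of 14 genes in the 6 wild-type libraries, with blue symbols for rest, orange for running and the symbol shape for the library number. For the 9 genes on the left, Fos to Ankrd1, running library 1 (circle) stands above all others, while for Mt2, Cebpd, Fkbp5, Tsc22d3 and Foxo1 all 3 running libraries lie above rest.

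The windows of Hspa1a and Hspb1 are shown for the heat shock letters GAANNTTC, in capitals (RefSeq, GRCm38.p6, both strands searched; the letters read the same on either strand).
Hspa1a, chr17:34972157-34972406, minus strand: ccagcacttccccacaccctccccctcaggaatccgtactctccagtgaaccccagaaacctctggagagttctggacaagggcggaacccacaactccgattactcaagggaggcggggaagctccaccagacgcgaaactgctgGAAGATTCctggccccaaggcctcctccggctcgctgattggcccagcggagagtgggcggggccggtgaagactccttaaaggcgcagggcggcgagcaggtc
Hspb1, chr5:135887669-135887918, plus strand: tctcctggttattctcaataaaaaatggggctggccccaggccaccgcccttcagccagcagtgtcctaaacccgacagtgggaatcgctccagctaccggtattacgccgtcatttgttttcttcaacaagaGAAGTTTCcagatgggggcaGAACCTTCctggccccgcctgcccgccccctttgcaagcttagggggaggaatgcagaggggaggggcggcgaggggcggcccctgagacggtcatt
The match lies 104 to 97 bases before the start in Hspa1a, and Hspb1 has 2. The Hspa1b window has the same base as Hspa1a at 247 of 250 positions. Of the 21 heat shock list genes with a window, 8 (38.1%) held the letters in any of their windows. This stood against 6.18% of the compared genes and 7.19% of the genes higher by the plain rule. Counted per window, the share was 6.69% of all 32851.

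The unfolded protein and integrated stress list had 2 higher genes of 20, beside 1.95% of all genes (median 0.08). Atf4, its central factor, was at 144, 125 and 137 FPKM at rest and 265, 190 and 206 FPKM after running (ratio 1.62), and Ppp1r15a, which ends the response, had a ratio of 2.13. Hspa5 (BiP), the endoplasmic reticulum chaperone, was apart between groups at a ratio of 1.29.

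Ppargc1a (PGC-1α), a coactivator known to be induced by exercise, was at 8.79, 13.7 and 13 FPKM at rest and at 63.9, 11.7 and 24.7 FPKM after running. Library 1 was high, library 3 moderately so, and library 2 lay within the rest range. The mean ratio was 2.82 with a limma adjusted p of 0.538. Nr4a3, an orphan receptor of the same early response, was at 1.69, 9.78 and 14.7 FPKM at rest and at 16.4, 3.66 and 12.7 FPKM after running, so the groups overlapped throughout and the sign turned without rest library 1. In the list of NR4A, PGC-1 and partner receptors 0 of 21 genes met the plain rule in either direction, with 2 higher without rest library 3 or running library 2. Mef2c and Perm1, its most abundant members, had ratios of 0.923 and 1.04.

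Respiratory chain genes had small differences of mostly 1 sign, which depended on the scaling. With a median of 0.15, 28 of 29 were positive beside 47.9% of all genes, but 17 under equal totals and 16 under quantile scaling. None met the plain rule, and Atp5b and Cox7a1 had ratios of 1.1 and 1.03. In the tricarboxylic acid cycle list (28 genes, median 0.10, turning to -0.02 and -0.05 under those scalings) the lower genes were Pdp1 and Pdk3, which switch pyruvate dehydrogenase on and off. Pdp1, its phosphatase, was at 42.1, 37.4 and 38.1 FPKM at rest and 18.6, 25.8 and 26.4 FPKM after running (ratio 0.602, limma adjusted p 0.21). Among the kinases Pdk4 lay above its rest range, while Pdk3 (log2 difference -0.55) lay below, as the phosphatase Pdp1 did. Pdk3 was a low gene that may have reached 1 FPKM at rest only, and then it could only count as lower. Its value therefore cannot decide whether the kinases share a direction. Pdk1 and Pdk2 did not meet the plain rule. Mpc1 overlapped between groups at a ratio of 0.997.

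Fibre type genes met the plain rule in 0 of 14 fast and 0 of 13 slow genes. The slow list had a median of 0.10 that turned to -0.17, with 1 lower gene, without running library 1, to -0.01 without rest library 2 and to -0.02 with equal totals, and it had 2 higher genes without running library 3. Tnnt3 and Myl1, fast-fibre proteins, had ratios of 1.14 and 1.19, and Mb and Csrp3, of slow fibres, 1.07 and 1.65 with overlap. Of 22 genes of branched-chain amino acid and purine nucleotide enzymes none met it, with Ampd1 at a ratio of 1.01 and Adssl1 at 0.903. The calcium list held 1 lower gene of 19, Nfatc2 (ratio 0.531), beside Srl at 1.03. The HDAC3 corepressor complex had 0 of 6 in either direction, with Ncor1 at 0.914.

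Vegfa, the vessel growth factor, was at 55.9, 67.5 and 97.2 FPKM at rest and at 80.9, 57.9 and 62.5 FPKM after running, fully overlapping. In its list of 16 the 1 higher gene was Egln3, an oxygen sensor, at 11, 8.85 and 8.59 FPKM at rest and 19.1, 14 and 17.5 FPKM after running (ratio 1.78, limma adjusted p 0.196), beside Bnip3 at a ratio of 1.17 and Slc16a3 at 1.31. Only 9 of the 22 listed secreted factors reached 1 FPKM, and Il6, Fgf21 and Gdf15 did not. Il6ra, a receptor chain for interleukin 6, was higher, at 0.738 to 1.46 FPKM at rest and 1.89 to 2.36 FPKM after running, and Igf1 was the lower one. Mstn, the growth inhibitor myostatin, overlapped between groups at a ratio of 1.40, and Fndc5 was level at 0.969. Among 22 oxidant defence genes Srxn1 was higher, with 140 FPKM in running library 1 and 20.7 and 31.7 FPKM in the others against 14.2 to 18.7 FPKM at rest, and the extracellular Sod3 was lower (ratio 0.532). Gpx4 and Prdx3 were at 1.07 and 1.05.

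**Figure D4:**
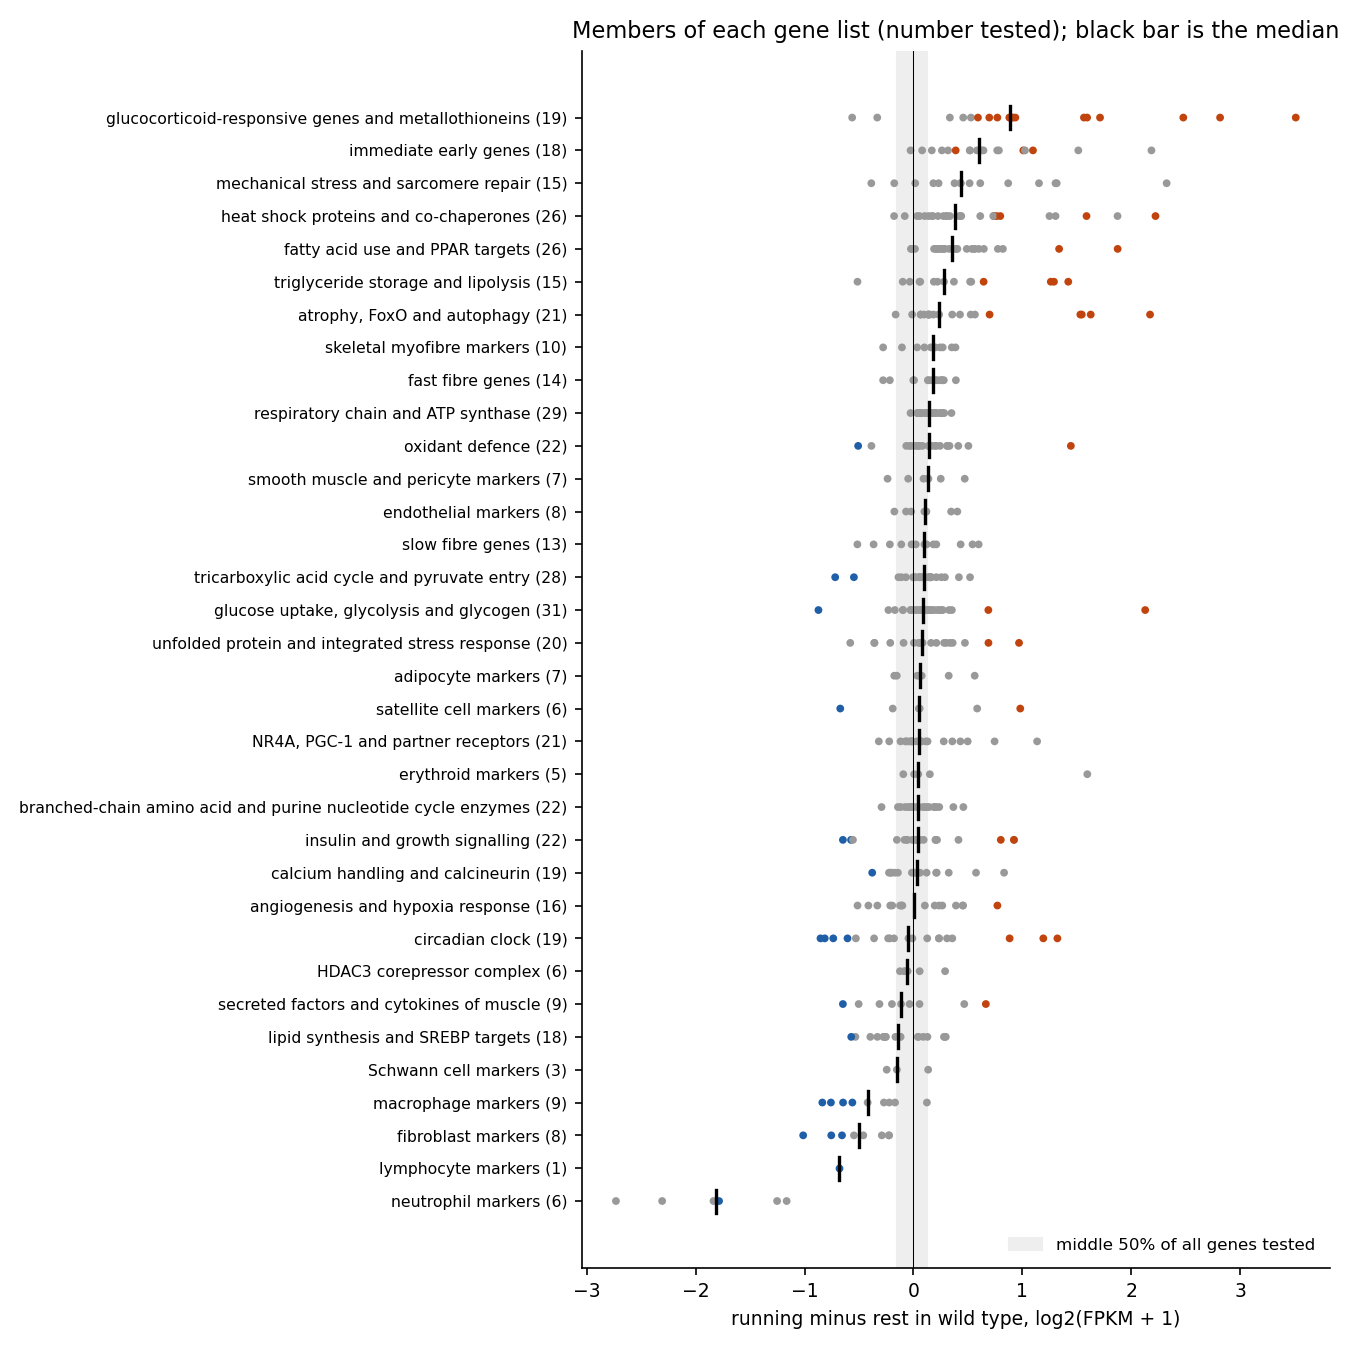
Running minus rest on the log2(FPKM + 1) scale for every measured member of each gene list, 1 row per list with the number measured in brackets, coloured where the plain rule was met, with a black bar at the list median and a grey band for the middle 50% of all genes. The glucocorticoid list lies farthest to the right with a median of 0.88. The neutrophil markers lie farthest to the left, with a median of -1.81 that rests on rest library 2. The 1 measured lymphocyte marker and the fibroblast and macrophage markers follow.

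The 353 genes lower by the plain rule, 248 under quantile scaling, had a median difference of -0.55. Ky, a muscle protein of the sarcomere's edge whose loss gives a spinal curvature in mice, was at 25.5, 22.0 and 28.5 FPKM at rest and at 11.4, 12.9 and 8.81 FPKM after running. The groups were far apart (ratio 0.435, log2 difference -1.13, SE 0.16, limma adjusted p 0.14). Tnfrsf19 was at 4.82, 9.10 and 6.27 FPKM at rest and 1.49, 2.07 and 2.54 FPKM after running (ratio 0.303). Prkg1, a kinase driven by cyclic GMP, was at 14.3, 18.7 and 18.9 FPKM at rest and 6.69, 9.29 and 5.22 FPKM after running (ratio 0.408). Fgf6, a growth factor made by muscle, was at 1.56, 3.00 and 2.90 FPKM at rest and below 0.45 FPKM in every running library (0.432, 0.441 and 0.217). All 4 had limma adjusted p between 0.14 and 0.178.

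Of the other genes of lowest p in this direction, Angptl2, Hmgn2 and Tmem243 had ratios of 0.552, 0.658 and 0.531. Lepr, the leptin receptor, was at 2.05 to 2.23 FPKM at rest and 0.842 to 0.957 FPKM after running. Rps27, a ribosomal protein gene whose many pseudogenes can share its reads, had a ratio of 0.586 and is uncertain. Igtp, an interferon-inducible GTPase of cell-autonomous defence, was at 6.94, 8.13 and 10.1 FPKM at rest and 3.64, 2.89 and 3.91 FPKM after running (ratio 0.415, limma adjusted p 0.146). Irgm2 and Gbp4, of the same class and chosen after their values were seen, had ratios of 0.486 and 0.341 without overlap.

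Markers of some cells other than muscle fibres were part of the lower side. Endothelial, smooth muscle and pericyte, adipocyte and erythroid markers had medians of 0.11, 0.13, 0.06 and 0.04. With equal totals these were -0.005, 0.02, -0.05 and -0.07. Schwann cell markers had a median of -0.15. None of these 5 lists had a lower gene by the plain rule. Of 9 measured macrophage markers 8 were below rest, with a median of -0.42, while 47.9% of all genes were above rest. By the plain rule 4 were lower (Adgre1, Cd68, Lyz2 and Mrc1), beside 3.3% of all genes. Adgre1 (F4/80) was at 1.47, 1.45 and 1.54 FPKM at rest and 0.580, 0.592 and 0.583 FPKM after running. It reached the 1 FPKM limit at rest only, so it could only count as lower. Summed over the 10 listed markers, macrophage genes gave 76.8, 79.7 and 74.9 FPKM at rest and 60.4, 52.8 and 38.8 FPKM after running. All 8 fibroblast markers were below rest, 3 of them by the plain rule (Col1a2, Col3a1 and Lum), beside 3.3% of all genes. Their median was -0.50, with sums of 625, 437 and 494 FPKM at rest against 389, 421 and 291 FPKM after running. Without running library 3 the fibroblast count was 1 and the median -0.18. In whole tissue, fewer cells of a type and less RNA per cell cannot be told apart.

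Spp1 and Tnc, matrix proteins chosen after their values were seen, were lower too, with ratios of 0.346 and 0.333. Neutrophil markers summed to 559 FPKM in rest library 2 and to 2.66 to 14.2 FPKM in the other 5 libraries, so their median of -1.81, which was -0.20 without it, rests on that library, and their part in other results was not tested. Lymphocyte markers summed to 0.487 to 4.15 FPKM, with Cd3g at 0 in all 6 libraries and Ptprc lower at a ratio of 0.393. The 10 myofibre markers summed to 68350 to 77340 FPKM at rest and 76160 to 91150 FPKM after running, as muscle should, and endothelial markers to 99.2 to 112 and 103 to 134 FPKM.

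The running differences of wild-type muscle were last set beside those of HDAC3-KO muscle, whose libraries are other samples but stand in the same pair of tables. The test of the difference between genotypes called 0 of 11032 genes (0%), with a smallest limma adjusted p of 0.853 and 551 genes at an unadjusted p under 0.05, so no gene was shown to respond differently. Of the 209 higher wild-type genes, 190 were also above rest in HDAC3-KO muscle and 54 met the same plain rule there. Of the 353 lower ones, 234 were below rest and 46 met the rule. Over all 10711 genes, 244 were higher and 193 lower by the plain rule in HDAC3-KO muscle, and 57.6% had the same sign in both genotypes. The median differences of the higher genes were 0.73 in wild type and 0.44 in HDAC3-KO, and those of the lower genes -0.55 and -0.13. Since the genes were picked by their wild-type values, a smaller second value is no test of a weaker response.

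In HDAC3-KO muscle 4 genes (0.0363%) passed limma's threshold in the fit of 12 libraries, Ky and Ppat lower and Musk and Ucp3 higher, all at an adjusted p of 0.0442. Ky was at 18.0, 21.6 and 13.6 FPKM at rest and 5.86, 6.58 and 3.98 FPKM after running in HDAC3-KO, a log2 difference of -1.50 beside -1.13 in wild type. Mt2 and Mt1 differed by 3.33 and 3.04 beside 3.51 and 2.82, and Foxo1 by 1.36 beside 1.55. Glul differed by 0.31 beside 1.59, and its HDAC3-KO rest libraries, at 225, 458 and 345 FPKM, already covered the wild-type running range. Bcl2l1 differed by 0.15 beside 0.99. For neither was the difference between genotypes called (adjusted p 0.93 for both).

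The median of the glucocorticoid list was 0.67 in HDAC3-KO and 0.88 in wild type, and that of the immediate early genes 0.07 and 0.61. Macrophage markers had a median of 0.50 in HDAC3-KO against -0.42 in wild type, and fibroblast markers -0.13 against -0.50, or -0.18 without wild-type running library 3. The respiratory chain list stood at -0.02 against 0.15.

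**Figure D5:**
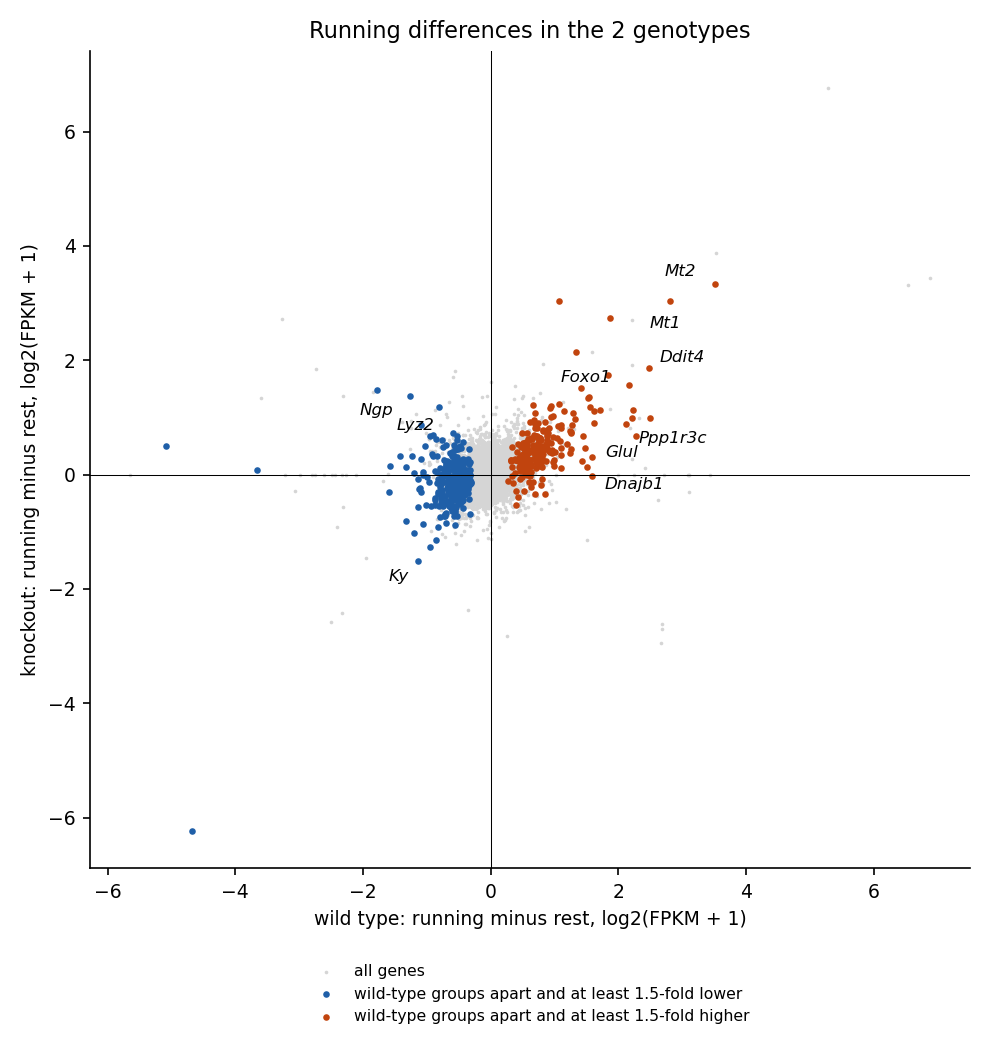
Running minus rest on the log2(FPKM + 1) scale in HDAC3-KO (vertical axis) against wild type (horizontal axis), 1 point per gene, coloured by the plain rule in wild type. Of the 209 higher genes 190 lie above 0 on the vertical axis, while 234 of the 353 lower genes lie below it.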

How the data were processed

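RNA-seq of mouse quadriceps was read from 2 tables deposited by the authors, 1 for rest and 1 for running by their own names. Both hold FPKM per library, group means of FPKM, and the p-values and q-values of the authors' own knockout against wild-type tests, which were not used here. TopHat2, Bowtie, Cuffdiff, HOMER and the mm9 build were used, per the submitters' processing notes. Versions, annotation, normalization settings and strand handling are not given in the sources used here. No counts were used, so the read depth is unknown and no counting interval is given. The 4 GRO-seq samples were not analysed here.

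Each table had 24354 rows. After 27 rows with date-like gene names were left out, the 24327 shared names were joined. Libraries were rescaled by median-of-ratios factors over the 9315 genes at or above 1 FPKM in all 6 wild-type libraries. The factors lay between 0.990 and 1.01. Differences were fitted on log2(FPKM + 1) with limma 3.58.1 (empirical Bayes with trend, R 4.3.3), with Benjamini-Hochberg adjustment over all 10711 genes and a threshold of 0.05. A second model covered all 12 libraries and gave the knockout and interaction terms. Ratios and overlap of groups were taken from FPKM as deposited. The scripts were tested on simulated data. Alternatives covered scaling, pseudocount, filter, limma's trend, all 12 libraries, a replicate block and leaving out each library.

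Genes were named by rule: Hdac3, 6 genes of long-standing interest in exercised muscle, the 10 of lowest unadjusted p per direction, and the 2 most abundant members of each pathway list. A few genes are not reported here. The members and lists were chosen with earlier results of these data known. The rule of non-overlapping groups at least 1.5-fold apart, the genes named from it, the library-1 genes and 3 of the motifs were chosen after the values were seen.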

Additional observations from a re-analysis of the deposited data

How the results depend on the processing

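The count of genes called by limma, 0 in either direction, was also 0 with no rescaling, quantile scaling, a pseudocount of 5, no filter, a limit of 5 FPKM and the replicate block. It became 1 higher with equal FPKM totals, 5 with a pseudocount of 0.1, 1 without limma's trend and 5 with all 12 libraries. With 1 library left out, 0 to 3 genes were called higher and 0 to 1 lower: Fkbp5 and Plin4 without rest library 1, Snora64 without rest library 2, Mir8108 (lower) without rest library 3, Mir6374 without running library 1, Mt1, Mt2, Rnaset2a and Cd52 (lower) without running library 2, and Ddit4, Mir6338 and Ndufs5 (lower) without running library 3. The difference between genotypes had 0 calls, except 1 without wild-type rest library 3 (Mir8108) and 1 without wild-type running library 3 (Ndufs5). No pairing by replicate number was seen: deviations of same-numbered libraries correlated at -0.0216, -0.112 and -0.0412. With 3 libraries per group this check cannot exclude a weak pairing. The replicate block in limma left 0 calls, 395 higher and 445 lower genes at an unadjusted p under 0.05 and a smallest adjusted p of 0.157.

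By the plain rule, 209 and 353 genes became 132 higher and 584 lower with equal FPKM totals and 255 higher and 248 lower with quantile scaling, where 193 and 241 were kept and the excess of lower genes was gone. The counts ranged from 221 to 415 higher and from 424 to 584 lower with 1 library left out. Fewer libraries have to lie apart there, and 168 to 201 of the 209 and 284 to 331 of the 353 were kept. Heat shock genes went from 5 to 2 with equal totals and ranged from 1 to 10 with a library left out, and immediate early genes went from 3 to 5 with quantile scaling and ranged from 1 to 7. Lower clock genes ranged from 1 to 6 around 4 and lower fibroblast markers from 1 to 4 around 3, the lowest without running library 1 and without running library 3. The glucocorticoid list had 12 to 14, and fatty acid genes ranged from 2 to 11 around 2 and stretch and repair genes from 0 to 5 around 0. Leaving a library out gave 5 to 6 atrophy genes, 3 higher clock genes and 3 to 5 macrophage markers.

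Of 2238 values of 141 genes under the alternatives, 40 turned direction, in 17 genes, Csrp3 and Nr4a3 having the largest differences among them (0.43 each); the cause was not tested. With equal totals the log2 differences were -0.0611 for Hdac3, -0.0459 for Perm1, -0.0795 for Me1, -0.0211 for Aldoa, -0.0665 for Cox7a1, -0.105 for Mpc1, -0.0698 for Ampd1, -0.0385 for Prdx3, -0.0209 for Mb and -0.0782 for Srl. With quantile scaling they were -0.054 for Perm1, -0.00828 for Me1, -0.0847 for Aldoa, -0.0645 for Cox7a1, -0.129 for Mpc1 and for Ampd1, -0.0279 for Gpx4, -0.107 for Prdx3 and -0.115 for Srl. With 1 library left out they ranged from -0.331 to 1 for Nr4a3, -0.0252 to 0.201 for Perm1, -0.0199 to 0.0726 for Me1, -0.0122 to 0.207 for Aldoa, -0.164 to 0.0904 for Fndc5, -0.0356 to 0.386 for Gpx4, -0.0808 to 0.145 for Hdac3, -0.284 to 0.119 for Vegfa, -0.131 to 0.122 for Mpc1, -0.154 to 0.207 for Ampd1, -0.254 to 0.0845 for Adssl1, -0.0219 to 0.162 for Prdx3, -0.0422 to 0.1 for Srl, -0.107 to 0.0513 for Tef, -0.171 to 1.01 for Csrp3 and -0.0151 to 0.204 for Mb. With no counts, the depth limit of low genes is unknown.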
